A study of Mus musculus with 9 samples.

Results

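Muscle stores glucose as glycogen, and 9 genes for making and breaking down that store were followed through the gastrocnemius of control, p38α-deficient and p38α/γ-deficient mice. They were taken by name from the 13179 genes of the deposited table, all 9 were found once, and all 9 passed the filter on low values. The 9 libraries, 3 in each group, held polyadenylated RNA of the gastrocnemius, a mainly fast calf muscle, from mice that had eaten a high-fat diet over 6 weeks. The control group is labelled only as control. The p38α KO is labelled p38alphaMCK-KO and the p38α/γ KO p38alpha/gammaMCK-KO. MCK stands in such names for the muscle creatine kinase promoter, which is active in the fibres of skeletal and heart muscle, so other cells of the tissue are expected to keep both genes. Whether the controls carried floxed alleles or Cre, and the strain and age of the mice, are not given in the sources used here. The samples of each group are numbered 1 to 3, with no statement on whether they came from separate animals, so each p-value reflects only how much these libraries vary, which may be technical.

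Glycogen is started by glycogenin (Gyg), a protein that attaches the first glucose units to itself. Ugp2 makes UDP-glucose, the donor of glucose units, glycogen synthase (Gys1) lengthens the chains, and the branching enzyme Gbe1 adds side chains. Glycogen phosphorylase (Pygm is the muscle form) takes glucose units off again. It is switched on by phosphorylase kinase, a large complex of a catalytic γ subunit (Phkg1 in muscle), the regulatory subunits α (Phka1 in muscle) and β (Phkb), and calmodulin, through which calcium released during contraction activates it. Stbd1 binds glycogen and ties it to membranes. In fast muscle this store feeds short bursts of contraction. p38α and p38γ, encoded by Mapk14 and Mapk12, are stress-activated kinases.

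Mapk14 was low in both knockouts and Mapk12 lowest in the p38α/γ KO, as labelled, and Mapk12 was also lower in p38α KO muscle, where the label names p38α alone. Mapk14 measured 143, 149 and 157 in the controls, 43.8, 45.5 and 40.3 in p38α KO muscle and 54.7, 37.0 and 42.7 in p38α/γ KO muscle. Mapk12 measured 140, 138 and 152 in the controls, 96.5, 103 and 105 in p38α KO muscle and 31.2, 35.5 and 32.8 in p38α/γ KO muscle. The fall of Mapk12 in p38α KO muscle passed the test (log2 −0.49, limma adjusted p = 0.00601) and was −0.46 without p38α KO 1 (adjusted p = 0.00532). Values are the authors' normalised values. Inferred depths ran from 23820968 to 27944409 reads a library. The fibre genes Ckm and Acta1, which define skeletal muscle, were among the highest in every library, at 14294 or more and 20034 or more. Library 1 of the p38α KO stood apart, with a correlation of 0.961 across genes with library 3 of its group, while pairs within the other groups lay between 0.987 and 0.993. The result of each of the 9 genes in that knockout is therefore also given without it.

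The promoters of 3 genes are shown because they mark the ends of what follows: Phka1 and Phkb had the largest falls of the 9 genes, and Gys1 was near its control level in both knockouts. The sequences are the 250 bases before the RefSeq start site on GRCm38.p6, written 5′ to 3′ on the strand of the gene. They lie at chrX:102644247-102644496 (minus strand), chr8:85840738-85840987 (plus strand, of which the last 29 bases lie inside the gene as GENCODE M21 draws it) and chr7:45434589-45434838 (plus strand). Capitals mark CANNTG, the E-box letters bound by myogenic and other helix-loop-helix factors, and GGGCGG or its reverse complement, the GC box.
Phka1: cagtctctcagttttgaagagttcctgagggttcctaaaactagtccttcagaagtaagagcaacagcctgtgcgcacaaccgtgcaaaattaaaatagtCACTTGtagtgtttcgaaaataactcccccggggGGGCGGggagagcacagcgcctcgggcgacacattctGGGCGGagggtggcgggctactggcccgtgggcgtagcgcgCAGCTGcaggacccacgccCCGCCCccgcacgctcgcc
Phkb: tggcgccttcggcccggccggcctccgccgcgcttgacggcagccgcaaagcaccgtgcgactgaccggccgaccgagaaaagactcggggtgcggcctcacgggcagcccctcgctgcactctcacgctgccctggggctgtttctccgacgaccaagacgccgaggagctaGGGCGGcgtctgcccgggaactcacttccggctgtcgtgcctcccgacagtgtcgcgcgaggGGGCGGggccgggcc
Gys1: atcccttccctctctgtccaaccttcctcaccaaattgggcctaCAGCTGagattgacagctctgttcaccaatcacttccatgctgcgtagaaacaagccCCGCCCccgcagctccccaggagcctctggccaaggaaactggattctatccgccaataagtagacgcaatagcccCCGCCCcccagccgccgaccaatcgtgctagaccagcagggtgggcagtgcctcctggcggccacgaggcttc
The Phka1 window held 2 CANNTG and 3 GC box matches, the Phkb window 0 and 2, and the Gys1 window 1 and 2. RefSeq windows were found for all 9 genes. All 250 bases of the Phkg1 window and of a Ugp2 window, and 201 of the Gyg window, lie inside the gene as GENCODE M21 draws it. Searched on both strands, CANNTG was in windows of 8 of the 9 genes and of 18729 of all 27025 genes. It was in 66.2% of all 32851 windows of the same length. GGGCGG was in those of 6 of the 9 genes, of 9555 of all genes and in 32.7% of all windows. The MEF2 motif was in none of the 9 genes' windows and in 2.92% of all windows. CACGTG, a special case of the E-box, was in none against 6.02%. AAGGTCA, a nuclear receptor site, was in none against 4.08%, and the TATA box TATAAA in none against 12.4%. These matches describe letters only.

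Of the 9 genes, 4 fell in p38α KO muscle and 5 in p38α/γ KO muscle, and none rose. The 3 muscle subunits of phosphorylase kinase and glycogenin fell in both knockouts, and Ugp2 fell in p38α/γ KO muscle. The median of the 9 log2 differences was −0.43 in p38α KO muscle and −0.50 in p38α/γ KO muscle, where the median of all 13137 tested genes was 0.01 and 0.02. A call is a limma adjusted p below 0.05 over all tested genes, on log2(value + 1). By that rule 10.4% of all tested genes were lower in p38α KO muscle and 14.4% in p38α/γ KO muscle. The groups did not overlap for 6 of the 9 genes in each knockout, all lower, where 21.1% and 28.6% of tested genes were lower without overlap. The comparisons share their controls, so the likeness of the knockouts is not independent evidence. Leaving out a library moved these counts. In p38α KO muscle the count was 2 without control 1, 2 or 3, and 4 without p38α KO 1. In p38α/γ KO muscle it was 2 without control 1, 2 or 3 or p38α/γ KO 2, and 3 without p38α/γ KO 3. The 2 genes left in each of the counts of 2 were Phka1 and Gyg. Calls over all genes fell as well. Without control 1, 2 and 3 they went from 2332 to 840, 981 and 801 in p38α KO muscle. In p38α/γ KO muscle they went from 3368 to 1094, 1634 and 1173, and to 844 and 1010 without p38α/γ KO 2 and 3.

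**Figure D1:**
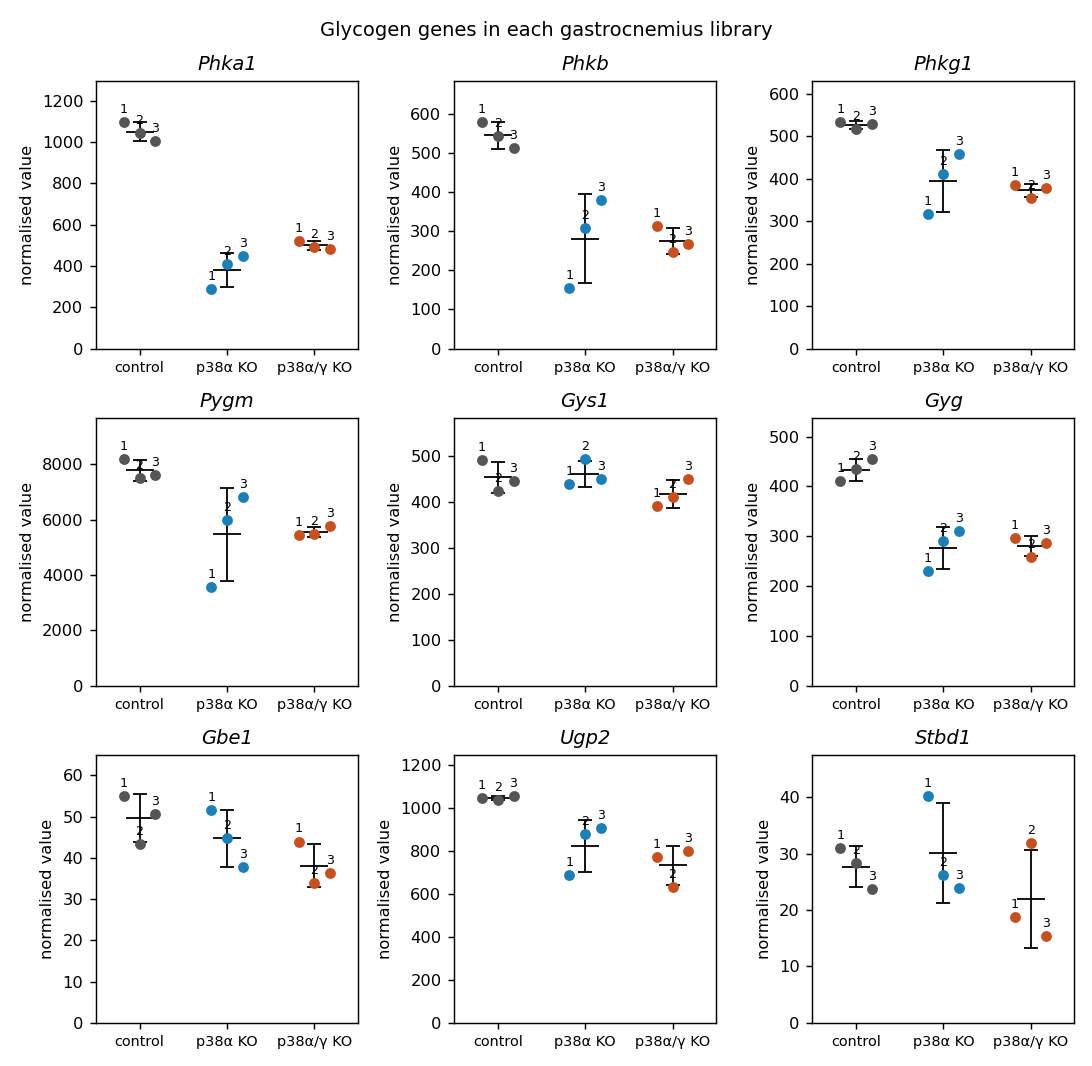
Normalised value of each of the 9 glycogen genes (vertical axis, starting at 0) in the 3 libraries of each group (numbered points), with the group mean and SD (black). Phka1 lies at 1007 or more in the controls and at 522 or less in every knockout library, Gys1 overlaps in all groups, and p38α KO 1 is the lowest library for Phka1, Phkb, Phkg1, Pygm and Gyg.

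Phka1 (ENSMUSG00000034055, chromosome X, 102513975 to 102644246, GRCm38), the large regulatory subunit that holds back the kinase until it is phosphorylated, fell most. It measured 1097, 1041 and 1007 in the controls, 286, 408 and 446 in p38α KO muscle and 522, 493 and 481 in p38α/γ KO muscle. All 6 knockout libraries were far below the controls, and the p38α KO libraries were all below the p38α/γ KO libraries. The fall was 2.80-fold in p38α KO muscle (log2 −1.49, SE 0.148, limma adjusted p = 0.000706) and 2.10-fold in p38α/γ KO muscle (log2 −1.07, SE 0.148, adjusted p = 0.00354). Both calls held in all 19 alternatives. Without p38α KO 1 the first was −1.29 on the log2 scale (adjusted p = 6.76e-05).

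Phkb (ENSMUSG00000036879, chromosome 8, 85840959 to 86061376), the β subunit, which is shared by the muscle and liver forms of the enzyme, measured 580, 544 and 512 in the controls. It measured 155, 308 and 380 in p38α KO muscle and 313, 248 and 267 in p38α/γ KO muscle. The knockout libraries lay below every control and overlapped with each other, and p38α KO 1 was the lowest of the 9. The differences were 2.07-fold (log2 −1.05, SE 0.267, limma adjusted p = 0.0265) and 1.98-fold (log2 −0.99, adjusted p = 0.0269). Without p38α KO 1 the first was −0.67 (adjusted p = 0.00621). Its call was lost without control 1 (0.0856), control 2 (0.0756) or control 3 (0.0736), with the 6 libraries alone (0.0638) and with quantile normalisation (0.0533). The call in p38α/γ KO muscle was lost without control 1 (0.0859), control 2 (0.0701), control 3 (0.0698), p38α/γ KO 2 (0.0993) or p38α/γ KO 3 (0.0818).

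Phkg1 (ENSMUSG00000025537, chromosome 5, 129863421 to 129898549), the subunit that carries the kinase activity, measured 534, 517 and 530 in the controls, 316, 410 and 459 in p38α KO muscle and 385, 355 and 379 in p38α/γ KO muscle. Its controls were tightly grouped and above every knockout library. The fall was 1.35-fold in p38α KO muscle (log2 −0.43, SE 0.126, limma adjusted p = 0.0423) and 1.41-fold in p38α/γ KO muscle (log2 −0.50, adjusted p = 0.0217). The call in p38α KO muscle was lost without control 1 (0.12), control 2 (0.098), control 3 (0.121), p38α KO 2 (0.0731) or p38α/γ KO 1, 2 or 3 (0.0589, 0.0592 and 0.0667), and with quantile normalisation (0.123), no trend (0.0539) and the 6 libraries alone (0.0925). Without p38α KO 1 it was −0.28 (adjusted p = 0.0348). In p38α/γ KO muscle the call was lost without control 1 (0.073), control 2 (0.0561), control 3 (0.0712), p38α/γ KO 2 (0.0842) or p38α/γ KO 3 (0.0664). Phkg1 overlaps Sumf2 on the opposite strand, and Chchd2 lies within its span on its own strand. The library kit keeps strand, but whether the counting used it is not given in the sources used here.

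The subunits did not fall by the same amount. Within each library the ratio of the Phka1 value to the Phkg1 value was 1.99 ± 0.0806 in the controls, 0.957 ± 0.0469 in p38α KO muscle and 1.34 ± 0.0604 in p38α/γ KO muscle (SD, n = 3). This ratio needs no scaling between libraries, and the 3 groups did not overlap. The ratio of Phkb to Phkg1 was 1.03 ± 0.062, 0.690 ± 0.176 and 0.738 ± 0.065, with both knockouts below the controls. The ratio of Phka1 to Phkb was 1.92 ± 0.0384 in the controls and 1.82 ± 0.162 in p38α/γ KO muscle, where the libraries overlapped. In p38α KO muscle it was 1.84, 1.33 and 1.17 in libraries 1, 2 and 3. These ratios were chosen after the values were seen and carry no test.

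The liver forms of the subunits were low. Phkg2, the γ subunit of liver and other tissues, measured 8.45, 7.60 and 8.30 in the controls, 11.3, 10.7 and 10.4 in p38α KO muscle and 10.0, 12.7 and 11.4 in p38α/γ KO muscle. It rose by 0.37 (limma adjusted p = 0.0397) and 0.44 (adjusted p = 0.0192) on the log2 scale. The first call was lost without control 1 (0.0889), control 2 (0.122), control 3 (0.101), p38α KO 1 (0.0629), p38α KO 2 (0.0871) or p38α/γ KO 3 (0.0639), and the second without control 1 (0.0546), control 2 (0.0639), control 3 (0.0586), p38α/γ KO 2 (0.0814) or p38α/γ KO 3 (0.0667). Phka2, the liver α subunit, measured 5.70 ± 0.442 in the controls, 6.50 ± 0.277 in p38α KO muscle and 7.02 ± 0.921 in p38α/γ KO muscle (SD, n = 3), and did not pass the test (adjusted p = 0.349 and 0.128). Per length, Phka1 made up 99.3% ± 0.0256 of Phka1 plus Phka2 in the controls, 97.9% ± 0.436 in p38α KO muscle and 98.3% ± 0.179 in p38α/γ KO muscle. The muscle form thus remained nearly all of the α subunit RNA in every group. Calmodulin, the δ subunit, is encoded by a family of genes that also serve many other proteins. Calm3 fell 1.55-fold and 1.50-fold (adjusted p = 0.0257 and 0.0278), and Calm2 measured 132 ± 8.81, 92.4 ± 25.5 and 120 ± 8.78 and was not called.

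Pygm (ENSMUSG00000032648, chromosome 19, 6384399 to 6398459), the target of phosphorylase kinase, was the most abundant of the 9 genes. It measured 8195, 7515 and 7626 in the controls, 3568, 6004 and 6827 in p38α KO muscle and 5435, 5480 and 5775 in p38α/γ KO muscle. Every knockout library was below every control, and p38α KO 1 was far below the rest. The differences did not pass the test: log2 −0.56 in p38α KO muscle (SE 0.213, 95% interval −1.04 to −0.09, limma adjusted p = 0.0957) and −0.48 in p38α/γ KO muscle (95% interval −0.96 to −0.01, adjusted p = 0.117). The first was −0.28 without p38α KO 1 (adjusted p = 0.123) and was called without p38α KO 3 (0.0275) and with array weights (0.00159). The second was called without p38α KO 1 (0.00548), with the 6 libraries alone (0.00588) and with array weights (0.00448), and was −0.04 with quantile normalisation. The brain form Pygb (9.65 ± 1.91 in the controls, SD, n = 3) and the liver form Pygl (3.08 on average) were not called in either knockout.

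Gyg (ENSMUSG00000019528, chromosome 3, 20122084 to 20155317), the primer of the glycogen particle, measured 410, 434 and 455 in the controls, 230, 289 and 310 in p38α KO muscle and 297, 258 and 287 in p38α/γ KO muscle. The 6 knockout libraries overlapped with each other and lay below all controls. The fall was 1.58-fold in p38α KO muscle (log2 −0.66, SE 0.118, limma adjusted p = 0.00735) and 1.54-fold in p38α/γ KO muscle (log2 −0.63, adjusted p = 0.00837). Both calls held in all 19 alternatives, and the first was −0.53 without p38α KO 1 (adjusted p = 0.00387).

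Ugp2 (ENSMUSG00000001891, chromosome 11, 21321138 to 21371201), which makes UDP-glucose, measured 1048, 1035 and 1055 in the controls, 686, 881 and 908 in p38α KO muscle and 771, 630 and 798 in p38α/γ KO muscle. The controls were nearly equal and above every knockout library. It fell 1.43-fold in p38α/γ KO muscle (log2 −0.52, SE 0.130, limma adjusted p = 0.0211), a call lost without control 1 (0.069), control 2 (0.0572), control 3 (0.0709) or p38α/γ KO 2 (0.0859). In p38α KO muscle the difference was −0.35 (95% interval −0.65 to −0.06, adjusted p = 0.0883), and −0.23 without p38α KO 1 (adjusted p = 0.161). It was called there without p38α KO 3 (0.0495) and with array weights (0.00439).

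Gys1 (ENSMUSG00000003865, chromosome 7, 45434844 to 45456619), the muscle glycogen synthase, measured 490, 424 and 445 in the controls, 438, 493 and 449 in p38α KO muscle and 390, 411 and 449 in p38α/γ KO muscle. All groups overlapped. The log2 differences were 0.02 (95% interval −0.19 to 0.23, limma adjusted p = 0.888) and −0.12 (95% interval −0.33 to 0.09, adjusted p = 0.357). The first was 0.06 without p38α KO 1 (adjusted p = 0.707). The intervals leave room for changes of these sizes. The start of the gene overlaps Ruvbl2 on the opposite strand. The ratio of the Pygm value to the Gys1 value in the same library was 16.7, 17.7 and 17.1 in the controls. It was 8.14, 12.2 and 15.2 in p38α KO muscle and 13.9, 13.3 and 12.9 in p38α/γ KO muscle. The controls were above all knockout libraries. This ratio too was chosen after the values were seen. It compares RNA values, and neither enzyme activity nor glycogen is in these data.

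Gbe1 (ENSMUSG00000022707, chromosome 16, 70313949 to 70569716), the branching enzyme, measured 54.9, 43.3 and 50.7 in the controls, 51.7, 44.7 and 37.7 in p38α KO muscle and 43.9, 33.9 and 36.4 in p38α/γ KO muscle. The groups overlapped. The log2 difference was −0.15 (95% interval −0.47 to 0.16, limma adjusted p = 0.478) and −0.38 (95% interval −0.69 to −0.06, adjusted p = 0.0771), and the first was −0.26 without p38α KO 1 (adjusted p = 0.207). After group means were subtracted, p38α/γ KO and control libraries of the same number correlated only weakly (0.111 to 0.148). With the replicate number as a block, the difference in p38α/γ KO muscle was called (adjusted p = 0.0494). It was also called without p38α KO 1 (0.0314), p38α KO 3 (0.0454) or p38α/γ KO 1 (0.0489), with the 6 libraries alone (0.0292) and with array weights (0.00461). Stbd1 (ENSMUSG00000047963, chromosome 5, 92603041 to 92606579), the glycogen anchor, measured 31.0, 28.4 and 23.7 in the controls, 40.2, 26.2 and 23.9 in p38α KO muscle and 18.7, 31.9 and 15.5 in p38α/γ KO muscle. Its libraries were spread widely within each knockout, with p38α KO 1 the highest of the 9. It was not called (log2 0.09 and −0.37, limma adjusted p = 0.839 and 0.295), and the first difference was −0.13 without p38α KO 1 (adjusted p = 0.736).

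**Figure D2:**
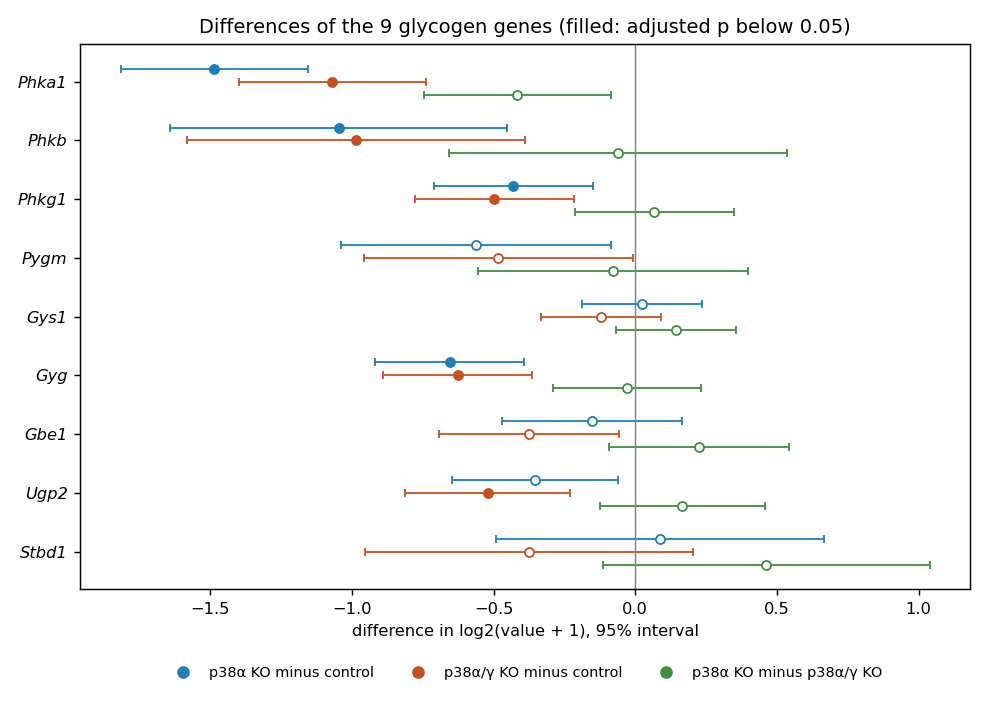
Difference in log2(value + 1) of each glycogen gene (horizontal axis) with its 95% interval from limma, for each knockout minus control (blue, orange) and the p38α KO minus the p38α/γ KO (green); filled points passed an adjusted p of 0.05. Filled points are Phka1, Phkb, Phkg1 and Gyg in both knockouts and Ugp2 in p38α/γ KO muscle, and no green point is filled.

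The third comparison asks whether the knockouts differ from each other. None of the 9 genes was called between the p38α KO and the p38α/γ KO by limma, and 0.442% of all tested genes were called. Of the 9, 1 (Phka1) had an unadjusted limma p below 0.05, a threshold for which no share over all genes is given here. For Phka1 the direct difference was −0.42 on the log2 scale (380.0 ± 83.7 against 499 ± 21.1, SD, n = 3; 95% interval −0.75 to −0.09, limma adjusted p = 0.298), and −0.22 without p38α KO 1 (adjusted p = 0.0895). Phka1 was the only one of the 9 whose libraries did not overlap between the knockouts, where 14.3% of tested genes did not overlap. The other 8 differences lay between −0.08 for Pygm and 0.46 for Stbd1, and their 95% intervals all included 0. Without p38α KO 1 the count stayed at 0 of 9, while calls over all genes went from 58 to 1862. With array weights 5 of the 9 were called (Phka1 lower, and Phkg1, Gys1, Gbe1 and Ugp2 higher, in p38α KO muscle) beside 6087 of all genes.

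Levels of different genes were compared per kilobase of exons. In the controls the order was Pygm (2707 ± 127 per kb, SD, n = 3), Ugp2 (364 ± 3.51), Gyg (225 ± 11.8), Phkg1 (222 ± 3.82), Phka1 (170 ± 7.42), Gys1 (123 ± 9.23), Phkb (102 ± 6.36), Stbd1 (12.5 ± 1.67) and Gbe1 (11.6 ± 1.38). Gyg and Phkg1 did not differ beyond their spread, nor did Stbd1 and Gbe1, whose order turned when the longest transcript gave the length (14.0 and 15.0 per kb). In both knockouts Phka1 had dropped below Gys1: 61.7 ± 13.6 against 125 ± 7.89 per kb in p38α KO muscle and 81.1 ± 3.43 against 113 ± 8.10 in p38α/γ KO muscle. The rest of the order was kept in the means, apart from Phkg1 (166 ± 30.7 and 157 ± 6.55) standing above Gyg (144 ± 21.6 and 146 ± 10.7), a difference of about the size of their spread. Phka1 and Phkb (52.5 ± 21.4 per kb) differed by less than their spread in p38α KO muscle, as did Stbd1 (13.6 ± 3.97) and Gbe1 (10.5 ± 1.64).

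Fast fibre genes gave a lower sum in the knockouts, though few of them were called. The summed value of 11 fast fibre markers ran from 185540 to 201460 in the controls, 113130 to 167850 in p38α KO muscle and 139560 to 145520 in p38α/γ KO muscle, and 1 of the 11 was called lower in each (Acta1 in the first, Actn3 in the second), where 10.4% and 14.4% of all tested genes were. The median log2 difference of the 11 was −0.37 in each knockout, beside −0.43 and −0.50 for the 9 glycogen genes. The groups did not overlap for 7 of the 11 in p38α KO muscle, all lower. In p38α/γ KO muscle they did not overlap for 8, of which Myh2 was higher. Of all tested genes, 21.1% and 28.6% were lower without overlap. An unadjusted limma p below 0.05 was reached by 4 and 5 of the 11. The share of all tested genes below that threshold is not given here, so these counts have no background beside them. The most abundant marker, Myh4, averaged 52316 in the controls, then 35534 and 27481, and was not called. Myosin genes of other type II fibres had higher means in the knockouts and were not called either: Myh1 averaged 4117 in the controls, then 4525 and 6310, and Myh2 averaged 2307, then 2890 and 3954. In p38α KO muscle library 1 lifted both means. Libraries 1, 2 and 3 measured 6935, 3536 and 3102 for Myh1 and 4582, 2952 and 1136 for Myh2. Libraries 2 and 3 were below the control mean for Myh1 and on either side of it for Myh2. In bulk muscle, fewer fibres and less RNA per fibre cannot be told apart. Against this sum, the glycogen genes parted into groups. Phka1 measured 5.36 ± 0.324 per 1000 of the summed markers in the controls, 2.61 ± 0.0733 in p38α KO muscle and 3.48 ± 0.230 in p38α/γ KO muscle (SD, n = 3), with no overlap between the groups. Phkb measured 2.79 ± 0.217, 1.88 ± 0.457 and 1.93 ± 0.280 and stayed below the controls. Phkg1, by contrast, measured 2.69 ± 0.0802, 2.73 ± 0.0643 and 2.60 ± 0.155, and Ugp2 5.35 ± 0.197, 5.73 ± 0.327 and 5.12 ± 0.674, with the controls inside the range of the knockouts. Pygm measured 39.8 ± 1.68, 37.1 ± 4.86 and 38.8 ± 0.980, again overlapping, with p38α KO 1 lowest at 31.5. Gyg was 2.22 ± 0.151, 1.92 ± 0.0995 and 1.96 ± 0.178, with the p38α KO libraries just below the controls (2.03 at most against 2.05 at least) and the p38α/γ KO overlapping them. Gys1 was 2.31 ± 0.123 in the controls and above them in every knockout library, at 3.25 ± 0.601 and 2.90 ± 0.158. These ratios were chosen after the values were seen, carry no test, and move with the abundant markers in the sum.

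**Figure D3:**
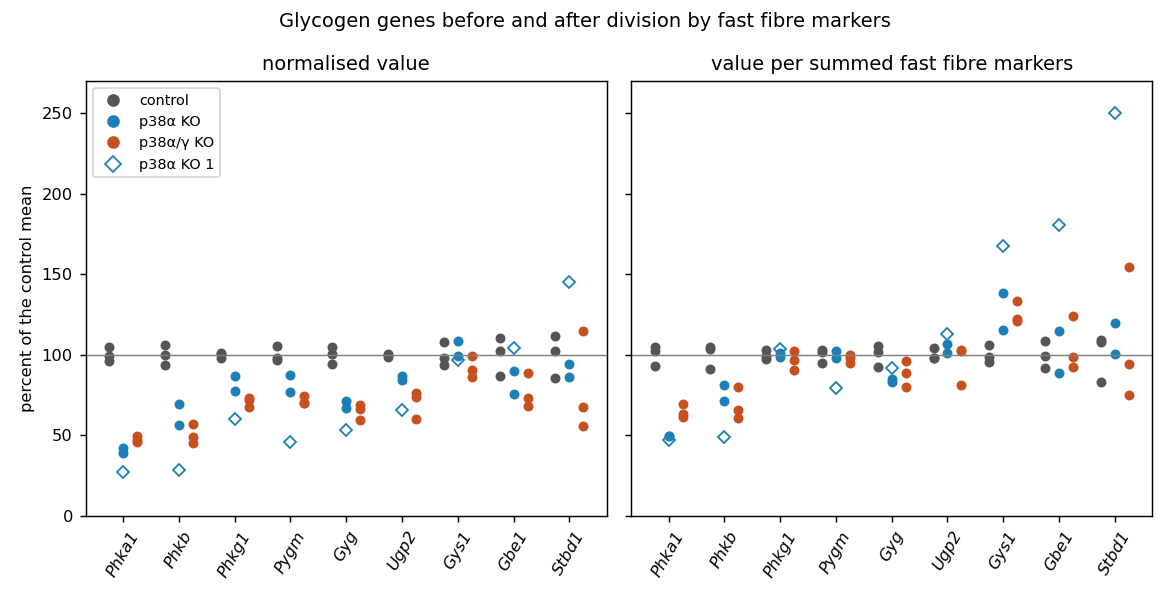
Each library as a percent of its gene's control mean (vertical axis), for the normalised value (left) and the value divided by the summed fast fibre markers (right); the open diamond is p38α KO 1. On the left 6 genes lie below the controls in all knockout libraries, and on the right only Phka1 and Phkb do.

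Macrophage markers had the most calls among the markers of other cells. The summed macrophage markers ran from 124 to 169 in the controls, 238 to 529 in p38α KO muscle and 312 to 508 in p38α/γ KO muscle, with 8 and 9 of 10 markers called higher. The sum was highest in p38α KO 1, the library with the lowest Phka1, Phkb, Phkg1, Pygm and Gyg values. Fibroblast markers ran from 1119 to 1441, 1088 to 2492 and 1737 to 2467 (1 and 4 of 8 called higher), slow fibre markers from 985 to 2038, 548 to 2184 and 1511 to 2204 (0 of 8 called), endothelial markers from 332 to 360, 313 to 371 and 286 to 326 (0 and 1 of 6 called, lower) and adipocyte markers from 32.9 to 194, 33.1 to 142 and 84.0 to 266 (1 and 0 of 6 called, lower). Over all tested genes, 7.32% were called higher and 10.4% lower in p38α KO muscle, and 11.2% and 14.4% in p38α/γ KO muscle. A single call in a list of 6 or 8 markers cannot be told from those shares. No marker of these lists lacked inferred reads in any library. The part of these cells in the glycogen results was not tested.

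Of 53 other genes of glycogen metabolism and its control, 50 were tested. Gys2, Ppp1r3g and Adrb1 were not listed by name in the authors' table. In p38α KO muscle 12 fell and 1 rose, and in p38α/γ KO muscle 14 fell and 3 rose, with medians of −0.21 and −0.17 on the log2 scale. Over all tested genes, 10.4% were called lower and 7.32% higher in the first comparison, and 14.4% and 11.2% in the second. Between the knockouts none was called by limma and 5 had an unadjusted p below 0.05. Without p38α KO 1, 9 of the 50 were called, beside 1862 of all genes. Among the 9 were Ppp1r3a, Prkacb, Prkaa2 and Akt2 (all higher in p38α KO muscle, limma adjusted p from 0.0100 to 0.0348). The count in p38α KO muscle was 13 with all libraries, 16 without p38α KO 1, 8 without p38α KO 2 and 6 or 7 without a control. The count in p38α/γ KO muscle was 17, and 7 without p38α/γ KO 2, 8 without p38α/γ KO 3 and 8 or 9 without a control. In these refits calls over all genes fell too, except without p38α KO 1 (2332 with all libraries, 2350 without it).

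Among genes that supply glucose units, phosphoglucomutase fell. The gene named Pgm2 in the table (ENSMUSG00000025791, Pgm1 in GENCODE M21), which converts glucose 1-phosphate and glucose 6-phosphate, measured 1376, 1287 and 1292 in the controls, 639, 891 and 943 in p38α KO muscle and 804, 848 and 785 in p38α/γ KO muscle. It was 1.62-fold lower in each (limma adjusted p = 0.0109 and 0.00988), and both calls held in all 19 alternatives. Pgm2l1, a relative, fell 1.73-fold and 1.60-fold (adjusted p = 0.00529 and 0.00863), also in all alternatives. Hk2, the muscle hexokinase, fell 1.27-fold in p38α KO muscle (adjusted p = 0.0348) and had log2 −0.19 in p38α/γ KO muscle (adjusted p = 0.151).

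On the breakdown side, Gaa, which digests glycogen in lysosomes, fell 1.37-fold in both knockouts (limma adjusted p = 0.0334 and 0.0278). Epm2a, which encodes laforin, a glycogen phosphatase, fell 1.50-fold in p38α KO muscle (adjusted p = 0.026) and had log2 −0.39 in p38α/γ KO muscle (adjusted p = 0.0804).

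Of 10 tested genes of protein phosphatase 1, which reverses the action of phosphorylase kinase, 2 fell in each knockout, none rose and 8 were not called, where 10.4% and 14.4% of all tested genes were lower. Ppp1r3a, the muscle subunit that brings the phosphatase to glycogen, measured 363, 310 and 293 in the controls, 79.9, 181 and 223 in p38α KO muscle and 160, 118 and 131 in p38α/γ KO muscle. All knockout libraries were below the controls (2.16-fold and 2.36-fold, limma adjusted p = 0.0366 and 0.0211). The catalytic subunit Ppp1cb fell 1.55-fold and 1.62-fold (adjusted p = 0.042 and 0.0246). Without p38α KO 1 the differences in p38α KO muscle were −0.67 for Ppp1r3a (adjusted p = 0.0123) and −0.41 for Ppp1cb (adjusted p = 0.0499).

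Among 19 tested kinases and receptors, 2 fell in p38α KO muscle, and 6 fell and 2 rose in p38α/γ KO muscle. The shares are near those of all tested genes for the first count and for the rises (10.4% lower, and 11.2% higher). In p38α/γ KO muscle 14.4% of all tested genes were lower. Prkab2, a β subunit of AMP-activated kinase, a sensor of cellular energy that binds glycogen, measured 478, 439 and 461 in the controls, 126, 213 and 244 in p38α KO muscle and 257, 217 and 227 in p38α/γ KO muscle. Its controls stood far above both knockouts (2.44-fold and 1.96-fold, limma adjusted p = 0.00463 and 0.0119). The catalytic subunit Prkaa2 fell 2.06-fold in p38α/γ KO muscle (adjusted p = 0.0125) and had log2 −0.70 in p38α KO muscle (adjusted p = 0.0561, and −0.39 without p38α KO 1). Of the γ subunits, Prkag3, the form of fast muscle, fell 1.66-fold in p38α/γ KO muscle (adjusted p = 0.0174), while Prkag2 rose 1.60-fold (adjusted p = 0.00629) and Prkag1 1.23-fold (adjusted p = 0.0483). Prkar2a, a regulatory subunit of protein kinase A, fell 1.72-fold and 1.51-fold (adjusted p = 0.00374 and 0.00974) and held in all 19 alternatives. Prkacb (1.44-fold, adjusted p = 0.0292) and Akt2 (1.31-fold, adjusted p = 0.0337) fell in p38α/γ KO muscle. With the replicate number as a block, the calls in p38α/γ KO muscle were lost for Calm3 (adjusted p = 0.0573), Prkacb (0.0521), Prkag1 (0.0524) and Akt2 (0.0532).

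Many of these calls were lost when 1 control was left out. Calls over all genes fell too, in p38α KO muscle from 2332 to 840, 981 and 801 without control 1, 2 and 3. In p38α KO muscle the calls of Calm3, Gaa, Ppp1r3a, Ppp1cb, Epm2a and Hk2 were lost without any 1 of the controls (limma adjusted p up to 0.0791, 0.116, 0.115, 0.113, 0.084 and 0.135). Those of Gaa (0.0722), Ppp1r3a (0.0526), Ppp1cb (0.0694) and Hk2 (0.0807) were also lost without p38α KO 2, that of Hk2 without p38α KO 3 (0.0593), and those of Gaa (0.0535), Ppp1r3a (0.0569) and Ppp1cb (0.0651) without p38α/γ KO 3. Ppp1r3a was lost too without p38α/γ KO 1 (0.0502) or 2 (0.0514). In p38α/γ KO muscle the calls of Calm3, Gaa, Ppp1r3a, Ppp1cb, Prkacb, Prkag1 and Akt2 were lost without any 1 control or without p38α/γ KO 2 or 3 (up to 0.108, 0.0948, 0.0837, 0.0997, 0.107, 0.169 and 0.117). Gaa (0.0619), Prkag1 (0.079) and Akt2 (0.0519) were also lost without p38α/γ KO 1, and Akt2 without p38α KO 2 (0.0506). Prkaa2 (0.0584) and Prkab2 (0.0541) were lost without p38α/γ KO 2, and Prkag3 was lost without control 2 (0.0533), control 3 (0.0664) or p38α/γ KO 3 (0.0615). Calls were also gained: in p38α KO muscle for Prkaa2 without p38α KO 1 (0.0357) or 3 (0.0135) and for Akt2 without p38α KO 3 (0.0459), and in p38α/γ KO muscle for Epm2a without p38α KO 1 (0.00424).

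**Figure D4:**
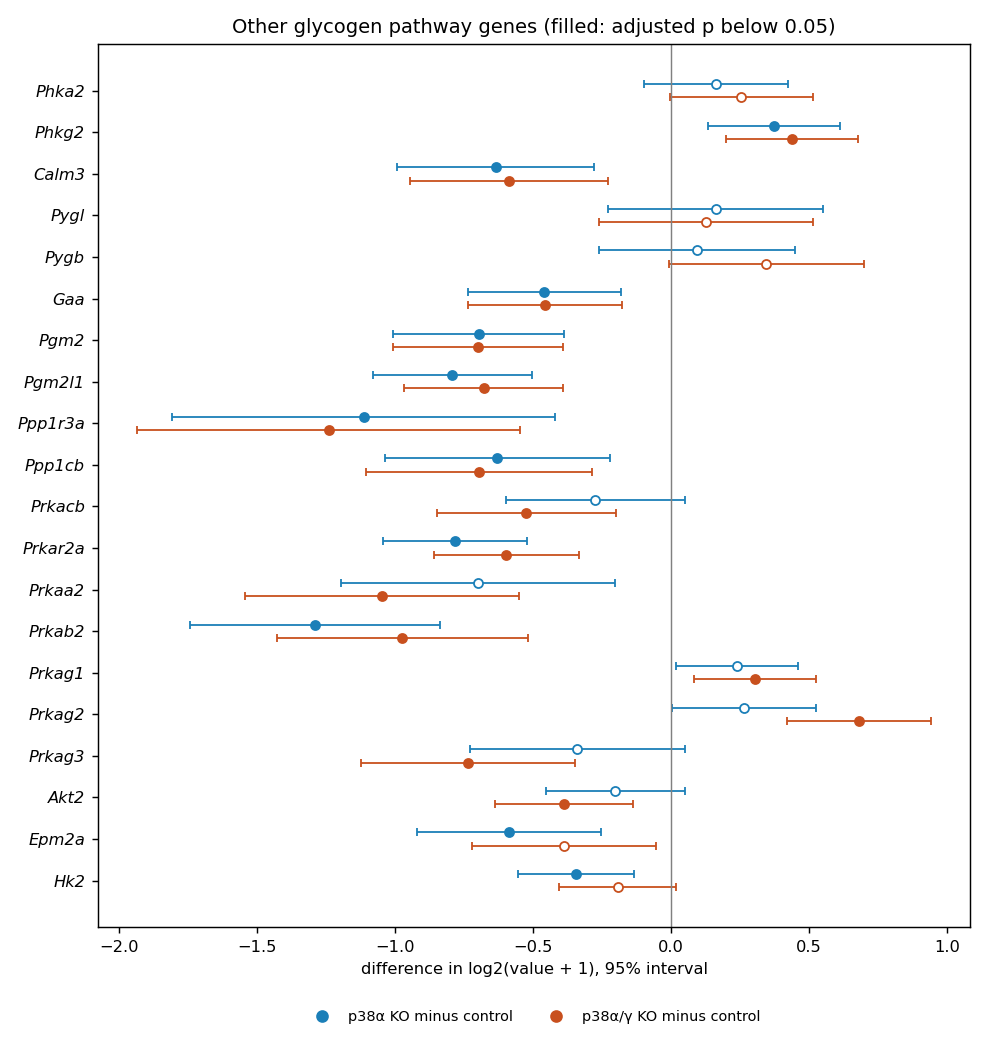
Difference in log2(value + 1) with its 95% interval from limma for the other glycogen pathway genes named here as called, and for Phka2, Pygl and Pygb (p38α KO minus control in blue, p38α/γ KO minus control in orange; filled points passed an adjusted p of 0.05). Phkg2, Prkag1 and Prkag2 have filled points above 0, and all other filled points lie below 0.

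Across the 9 libraries the falling genes moved together. The correlation of log2(value + 1) was 0.920 for Phka1 with Phkb, 0.982 for Phkb with Phkg1, 0.945 for Phkg1 with Pygm and 0.916 for Gyg with Ugp2. Gys1 correlated with none of the other 8 above 0.480. After the group means were subtracted, Phka1 and Phkb still had 0.988 and Phkb and Phkg1 0.980, over libraries that include p38α KO 1. The tested protein-coding genes most like Phka1 were Ccny (0.991), Golph3 (0.988), Lmbr1 (0.987), Cnbp (0.986) and Rnf157 (0.986). Those most like Gyg were Senp6 (0.997), Ppp4r3b (0.995), Atp8a1 (0.992), Tmod4 (0.991) and Sim2 (0.991). Tmod4, which caps the thin filaments of fast muscle, went from 427 in the controls to 271 and 278, and Cnbp from 662 to 419 and 492. All points share the group differences and the libraries, so these correlations are descriptions.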

How the data were processed

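The authors deposited 1 table of signal values, named normalised counts, with 13179 genes and 9 libraries. RNA with a RIN above 8 entered a strand-keeping kit at 100 ng, with 51-base single reads, per the labels' protocols. The tools named are CASAVA 1.8, cutadapt, RSEM 1.3.1, limma and GRCm38, per the submitters' processing notes; the scaling, the filter and the annotation release are not given in the sources used here. Each deposited signal value was an odd multiple of the smallest of its library (100% within 0.001 reads), which gave the inferred depths; no file states that these are reads, so no count test was used.

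A gene was tested when 3 or more libraries reached a value of 1. The fit ran in limma 3.58.1 (R 4.3.3) on log2(value + 1) over all 9 libraries, with the trended empirical Bayes step and Benjamini-Hochberg adjustment over the 13137 tested genes of each comparison. The script was tested on simulated data. The 9 genes, the other pathway genes and the markers were chosen with earlier results of these data known. Named genes were the 9 members, Mapk14 and Mapk12, called genes of the pathway lists, the other isoforms, and the 5 genes most correlated with Phka1 and with Gyg. Some pathway genes are not reported here by name, though the counts include them. The 19 alternatives changed the filter, pseudocount, scaling, spread estimate, libraries in the fit and block, and left out each library in turn.

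Lengths are the union of exons of protein-coding basic transcripts of GENCODE M21, and 13166 identifiers matched it. Promoter sequences are from RefSeq on GRCm38.p6. To check for pairing, each library had its group mean subtracted. Libraries that share a number then correlated at 0.111, 0.124 and 0.148 between p38α/γ KO and control. These correlations are weak, and libraries of unlike number were not compared. A pairing is therefore not established by the data, and the labels state none. Blocked values are given for that comparison where they change a call. Each of the remaining comparisons had a negative correlation, so no pairing was assumed there. Plots were made in Python 3.11.15 (matplotlib 3.10.9).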

Additional observations from a re-analysis of the deposited data

How the results depend on the processing

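No glycogen or pathway gene changed direction while called in either fit. Of 1707 refits of single genes, 1524 kept their side of the threshold, 140 lost a call and 43 gained one. The 1524 include refits that changed sign where neither fit gave a call. In the p38α KO against control, the count of the 9 glycogen genes was 2 with quantile normalisation, 2 with the replicate block and 2 with the 6 libraries alone (4 with all), and from 2 to 6 leaving out 1 library. It ran from 2 to 7 for the p38α/γ KO and was 0 throughout between the knockouts, except 5 with array weights. The other pathway genes gave 8 with quantile normalisation, 30 with array weights, 7 with the replicate block, 7 with the 6 libraries and 6 to 16 leaving out 1 (13 with all). In the p38α/γ KO they gave 28 with array weights and 7 to 24 leaving out 1 (17 with all). Between the knockouts they gave 21 with array weights and 0 to 9 leaving out 1 (0 with all). Over all genes, the p38α KO had 7475 calls with array weights, 1379 with the 6 libraries and 801 to 3241 leaving out 1 (2332 with all). The p38α/γ KO had 6740, 5478 and 844 to 5346 (3368 with all). Between the knockouts there were 6087 with array weights, 32 with the replicate block, 22 with the 6 libraries and 13 to 1862 leaving out 1 (58 with all). The cause was not tested. A pairing of the p38α KO with the controls by number is neither stated nor established (correlations −0.0858, −0.0866 and 0.0951). Whether the block belongs in that comparison therefore cannot be told. Under the block Phkb (limma adjusted p = 0.0502) and Phkg1 (0.0684) lost their calls there. In the p38α/γ KO the block gave 6 of the 9 glycogen genes and 13 other pathway genes. The SE of the log2 difference was 0.174 for Pygl, at a few normalised units, and 0.213 for Pygm. The 1 added before the log shrinks differences at values as low as those of Pygl. These SEs therefore do not compare the precision of the genes.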
